A study of Mus musculus with 8 samples.

Results

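Cultures of Müller glia (MG) from the young mouse retina were profiled after 8 and 14 days in vitro (DIV), and the miRNAs of these cultures are described here. The members were the mouse miRNAs of a NanoString nCounter panel whose raw count exceeded background in at least 1 of the 2 cultures, 208 of 566. Background was the mean plus 2 SD of the 8 negative control probes of the same assay, 52.8 raw counts at 14 DIV and 70.7 at 8 DIV. Of the 208 miRNAs, 160 exceeded it in both cultures, 26 at 8 DIV only and 22 at 14 DIV only. The raw table was used because for 16 miRNAs the deposited normalized table and the raw table pair names and culture values differently.

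The series holds 6 pooled RNA samples, namely fresh MG and neurons at P11 and in the adult and these 2 cultures. The cultures came from mice carrying Rlbp1-CreER and Stop f/f-tdTomato. In these mice tamoxifen switches on a red reporter in cells with an active Rlbp1 promoter, which in the neural retina marks MG. The treatment protocol in the sample labels gives tamoxifen at 75 mg/kg. Whole retinas of P11/12 pups were dissociated and grown in Neurobasal medium with N-2, 10% fetal bovine serum and 100 ng/mL EGF, passaged once at 6 DIV, and harvested at 8 DIV or kept to 14 DIV. These cells were not sorted, whereas the fresh MG were sorted by the reporter. The labels give 20 P11 retinas and 2 independent cultures pooled for each day, but labels and methods do not give a single number of animals and cultures. Each day is therefore 1 sample with no replicate, no test between the days was possible, and a difference of at least 2-fold takes the place of a call. Intervals are 95% exact limits for counts and shares and wider than 95% for ratios, and they cover counting error only, not the spread between cultures. In pooled RNA, fewer cells of a type and less RNA per cell cannot be told apart.

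A conflict in the labels bears on each direction given here. The age label of the culture titled 14 DIV gives 8 days, and that of the culture titled 8 DIV gives 14 days. Titles, sample descriptions and the column names of the raw table give 1 set of days, which is used here. The study describes miR-204 and miR-9 as declining from 8 to 14 DIV, and miR-720, miR-22 and miR-145 as higher at 14 DIV. These are the directions that the titles give. If the age labels held instead, every "higher at 14 DIV" would read lower.

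MG are the main glia of the retina and span its whole depth. miRNAs are short RNAs that guide Argonaute proteins to messenger RNAs, mostly through bases 2 to 8, the seed, so miRNAs with the same seed are treated as a family with overlapping targets. Many are made from shared precursors, so that neighbours in the genome often appear together. In the retina, miR-204 is known from pigmented epithelium, lens and MG, miR-9 from neural progenitors and glia, miR-124 from neurons, and the let-7 family from maturing cells.

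The mature sequences below belong to families with a member at least 2-fold apart between the 2 cultures, and to miRNAs higher at 14 DIV. They are shown so that shared and differing bases can be seen. They are RefSeq sequences for GRCm38.p6, printed 5′ to 3′ with the seed in capitals, and the arm was assigned by name where the panel gives none. The first family belongs to the miR-17-92 cluster and its relatives, known for driving proliferation. Its members were lower at 14 DIV on the housekeeping scale.
miR-20a-5p: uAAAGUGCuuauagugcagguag
miR-17-5p: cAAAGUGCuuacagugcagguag
miR-93-5p: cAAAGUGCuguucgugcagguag
miR-106b-5p: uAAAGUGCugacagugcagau
The miR-15/16 family, known for restraining cell cycle genes, was lower on that scale as well.
miR-15a-5p: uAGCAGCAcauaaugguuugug
miR-15b-5p: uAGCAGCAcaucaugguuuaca
miR-16-5p: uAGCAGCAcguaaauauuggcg
In the miR-29 family, known for repressing collagen genes, miR-29b declined far more than the others.
miR-29a-3p: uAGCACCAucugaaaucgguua
miR-29b-3p: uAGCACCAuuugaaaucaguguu
miR-29c-3p: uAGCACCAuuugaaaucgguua
The let-7 family shares its seed, and its members differ in a few bases outside it.
let-7a-5p: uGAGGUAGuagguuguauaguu
let-7e-5p: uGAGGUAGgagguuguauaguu
let-7g-5p: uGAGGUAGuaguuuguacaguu
let-7i-5p: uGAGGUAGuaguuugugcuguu
The miRNAs higher at 14 DIV shared no seed among the following.
miR-199a-5p: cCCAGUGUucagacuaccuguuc
miR-127-3p: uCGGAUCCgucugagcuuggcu
miR-329-3p: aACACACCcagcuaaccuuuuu
miR-410-3p: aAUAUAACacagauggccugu
miR-382-5p: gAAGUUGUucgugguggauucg
miR-434-3p: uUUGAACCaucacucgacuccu
In the same build mature miR-20a-5p lies at chr14:115044183-115044205 on the plus strand, let-7i-5p at chr10:122985698-122985719 on the minus strand and miR-127-3p at chr12:109592888-109592909 on the plus strand. miR-29b-3p is encoded at 2 places, chr1:195037091-195037113 and chr6:31063025-31063047.

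The depth of the 2 assays was close. The mouse miRNA probes summed to 442497 raw counts at 8 DIV and 391133 at 14 DIV. Positive control probes had a geometric mean of 1461 counts at 8 DIV and 1428 at 14 DIV, and ligation controls 3625 and 3903. The 4 housekeeping mRNAs, to whose sum the counts are scaled below, did not move together. Actb, the cytoskeletal actin, was read 6150 times at 8 DIV and 12624 times at 14 DIV, and B2m, the light chain of class I MHC, 7308 and 2934 times. After background subtraction Actb was 2.06 times higher at 14 DIV and B2m 2.50 times lower, so the sum, 16228 at 8 DIV and 17674 at 14 DIV, hid 2 opposite differences. Gapdh was at 698 and 652 counts and Rpl19 at 2216 and 1559. Scaling to the sum multiplied the 14 DIV counts by 0.918, whereas equal totals would multiply them by 1.12. A shift of 0.29 on the log2 scale therefore separates ratios on the housekeeping scale from ratios of shares.

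Both cultures were dominated by the same few miRNAs. The 10 highest held 63.0% of the miRNA counts at 8 DIV and 63.6% at 14 DIV, and 8 of these 10 were shared, as were 18 of the 20 highest. miR-125b-5p, known from neural progenitors and glia, ranked first in both, with 53110 raw counts at 8 DIV and 59742 at 14 DIV. Its share was 12.4% at 8 DIV (12.4 to 12.5) and 15.7% at 14 DIV (15.6 to 15.8), and its housekeeping-scaled ratio was 1.03. miR-204 ranked second in both, with 50185 counts at 8 DIV and 39232 at 14 DIV, or 11.8% and 10.3% of the counts. On the housekeeping scale miR-204 was 1.39 times lower at 14 DIV (interval 1.37 to 1.42), within the 2-fold limit.

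The order below these 2 differed. miR-9 had rank 4 at 8 DIV with 28135 counts and rank 8 at 14 DIV with 11598, a ratio of 2.64 (2.57 to 2.72) towards 8 DIV, and its share went from 6.59% to 3.05%. let-7i went from 18824 to 7123 counts and from rank 7 to 14, and was 2.88 times lower at 14 DIV (2.78 to 2.99). miR-720, a probe for a fragment of a transfer RNA, went from 20067 to 34262 counts and from rank 6 to 3, with a share of 4.70% at 8 DIV and 9.01% at 14 DIV. miR-22 had 15820 and 19591 counts and miR-21, a miRNA known from injured and activated cells, 15886 and 14782. Of the 20 highest at 8 DIV only miR-27a and miR-99a fell out of that group, and miR-145 and the joint probe for miR-1937a and miR-1937b came in.

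**Figure D1:**
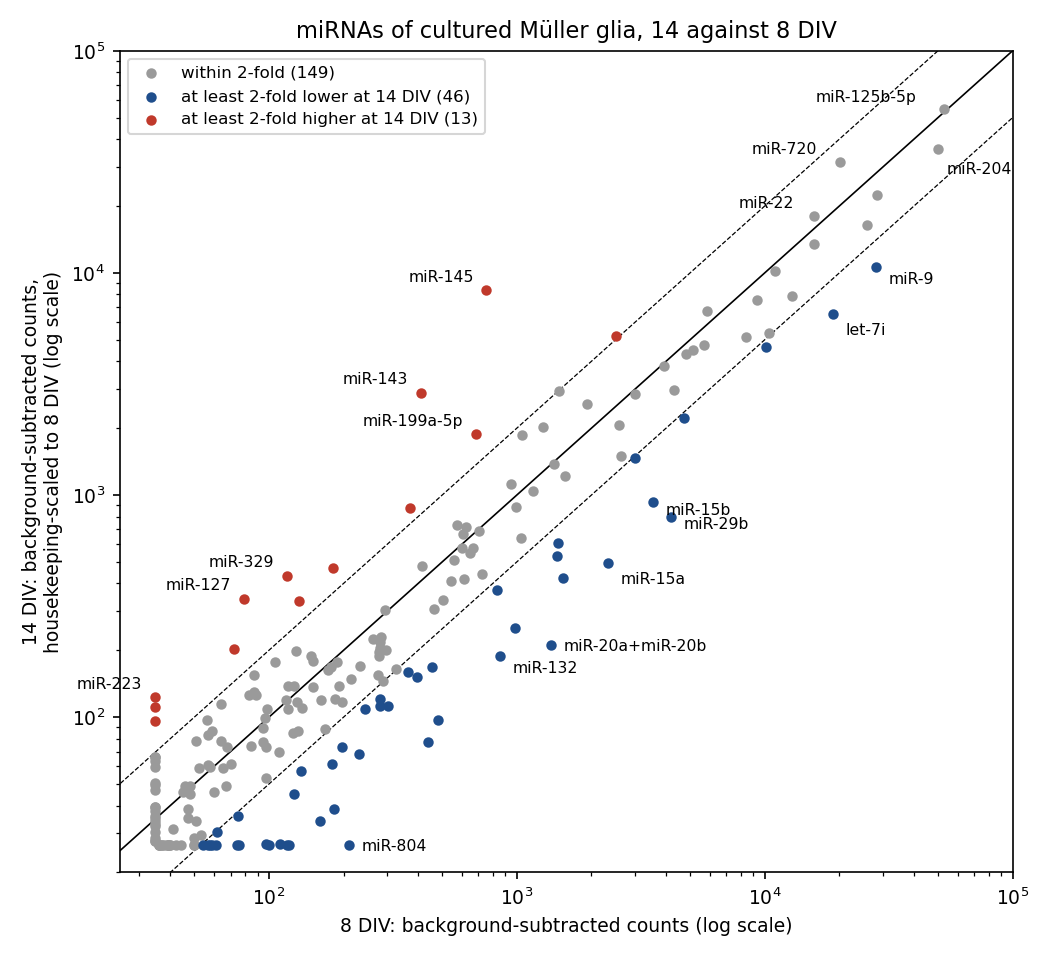
Background-subtracted counts of the 208 miRNAs at 8 DIV (x axis) and, scaled by housekeeping mRNAs, at 14 DIV (y axis), both on log scales; values below background are drawn at its limit, the solid line marks equality and the dashed lines 2-fold. The 13 miRNAs at least 2-fold higher at 14 DIV lie above the upper dashed line, led by miR-145 and miR-143, and the 46 at least 2-fold lower lie below the other one.

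Across the 208 miRNAs the log2 levels at 14 and 8 DIV had an R2 of 0.871 and a Spearman rho of 0.872, a description over miRNAs that share 2 assays and are not replicates. Between 8 DIV and fresh P11 MG the R2 was 0.751 over 196 miRNAs, and between 14 DIV and P11 MG it was 0.629 over 202. Against fresh adult MG it was 0.698 for 8 DIV over 212 miRNAs and 0.631 for 14 DIV over 211. Fresh P11 and adult MG had an R2 of 0.840 with each other over 179.

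On the housekeeping scale 13 of the 208 miRNAs (6.25%) were at least 2-fold higher at 14 DIV, 46 (22.1%) were at least 2-fold lower, and 149 stayed within 2-fold. The median log2 ratio was -0.33, with 65 miRNAs above 0 and 143 below. With equal totals, 23 (11.1%) were at least 2-fold higher and 30 (14.4%) lower, and the median was -0.04. The excess of lower over higher calls thus shrank with the scale, which leaves the order of the ratios as it is. All 13 higher calls had at least 100 background-subtracted counts in 1 culture, as did 36 of the 46 lower calls. For 45 of the 46 lower calls and each of the 13 higher ones the counting interval left out a ratio of 1, the exception being miR-762, with 98 and 57 counts. The 13 higher miRNAs made up 1.26% of the counts at 8 DIV and 6.11% at 14 DIV, and the 46 lower ones 20.9% and 9.18%.

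The counts of calls moved with the reference. Scaled to Actb alone, 3 miRNAs were at least 2-fold higher at 14 DIV and 135 lower, and scaled to B2m alone 117 were higher and 3 lower. Under each of the 10 scalings run, miR-145, miR-143 and miR-127 were at least 2-fold higher at 14 DIV and miR-804, miR-674 and miR-20a+miR-20b at least 2-fold lower. All 13 higher calls stayed above a ratio of 1 under the 10 scalings, and 24 of the 46 lower calls stayed below it. The other 22 lay above 1 with B2m alone.

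**Figure D2:**
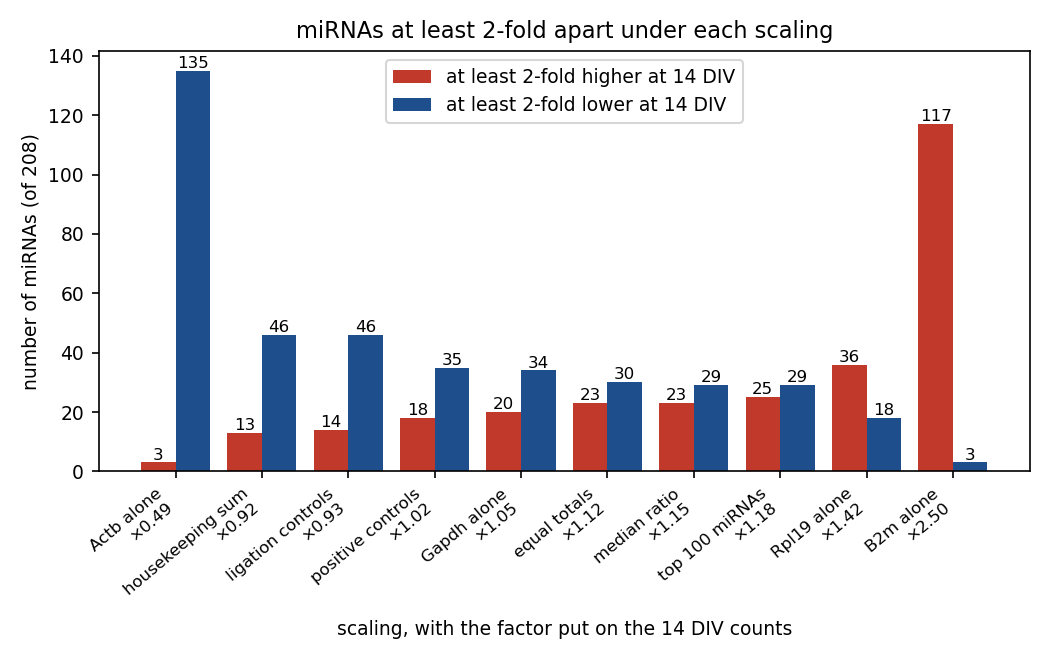
Number of the 208 miRNAs at least 2-fold higher (red bars) or lower (blue bars) at 14 DIV under 10 scalings, ordered by the factor that each puts on the 14 DIV counts. The main scaling, to the housekeeping sum, gave 13 higher and 46 lower, and Actb alone and B2m alone gave the extremes.

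miR-145 and miR-143 showed the largest ratios towards 14 DIV. Both are processed from 1 precursor and are textbook miRNAs of smooth muscle, mural cells and other mesenchymal cells. miR-145 was counted 788 times at 8 DIV and 9100 times at 14 DIV, moved from rank 48 to 10, and was 11.1 times higher at 14 DIV (10.1 to 12.2). miR-143 was counted 445 and 3167 times, a ratio of 7.06 (6.16 to 8.11). The pair did not move in strict proportion, since miR-145 stood at 1.84 times miR-143 at 8 DIV and at 2.89 times at 14 DIV. In fresh P11 MG, miR-145 had 83 raw counts and miR-143 had 24, both below that assay's background of 106.

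The miR-199a precursors give both miR-199a-5p and miR-199a-3p, again known from mesenchymal cells. miR-199a-5p went from 721 to 2070 counts, a ratio of 2.74 (2.43 to 3.10), and miR-199a-3p from 1509 to 3213, a ratio of 1.99 (1.82 to 2.17), just inside the 2-fold limit. miR-214, their neighbour in the genome, had 61 and 93 counts, below background at 8 DIV, and miR-152 stood at 738 and 774 counts. miR-10b, the other marker of this list on the panel, was below background in both.

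Of the 7 mesenchymal and mural markers on the panel, 5 exceeded background at 8 DIV and 6 at 14 DIV, and 3 were at least 2-fold higher at 14 DIV, against 6.25% over all 208 miRNAs. These 3 were miR-145 and miR-143, which share 1 precursor, and miR-199a-5p. The list was chosen with earlier results of these data known and is no independent evidence of a direction. The summed share of the 7 markers was 0.949% at 8 DIV and 4.81% at 14 DIV, against 0.0980% in fresh P11 MG and 0.0811% in fresh adult MG. The part of such cells in the differences between the cultures was not tested. The study describes miR-143, miR-145 and miR-199a as raised in cultured MG, and cites an earlier report of high levels in MG cultures. Without the miRNAs of all cell type marker lists, 9 miRNAs were at least 2-fold higher and 40 lower among the 181 that remained.

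**Figure D3:**
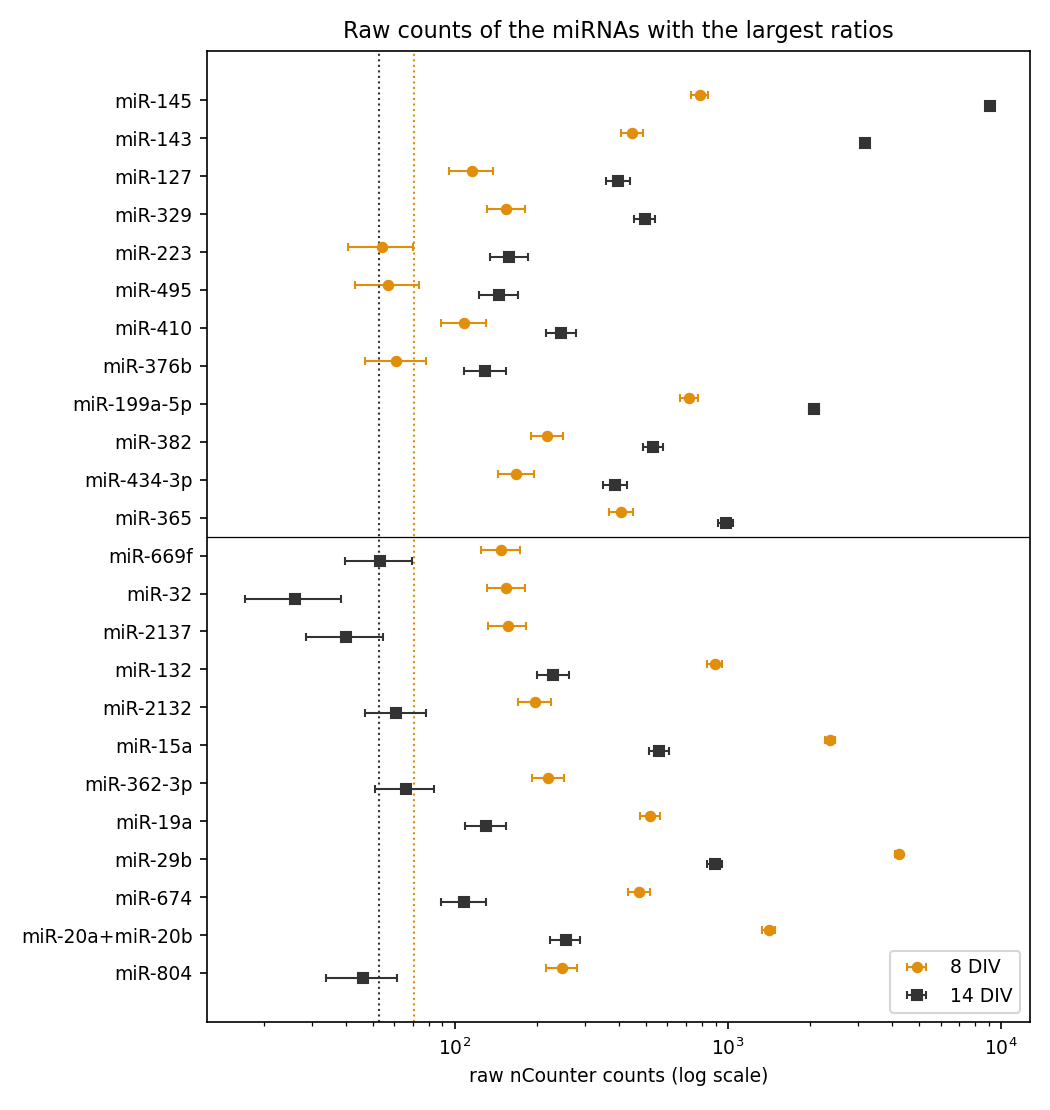
Raw counts (x axis, log scale) at 8 DIV (orange circles) and 14 DIV (black squares) with 95% exact Poisson limits, for the 12 higher and 12 lower miRNAs with the largest ratios and 100 or more background-subtracted counts; dotted lines mark the background of each assay. miR-145 went from 788 to 9100 counts and miR-29b from 4220 to 893, and miR-32, miR-2137 and miR-804 were below background at 14 DIV.

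A large block of the higher miRNAs came from 1 place in the genome. The imprinted Dlk1-Dio3 locus on chromosome 12 encodes a long array of miRNAs expressed from the maternal chromosome and known from stem cells, brain and muscle. Of the 47 miRNAs listed for it here, 13 exceeded background at 8 DIV and 24 at 14 DIV. The limits differed, at 70.7 raw counts for 8 DIV and 52.8 for 14 DIV, so these counts are not like for like. miR-539, for example, had 68 raw counts at 8 DIV and 59 at 14 DIV, yet exceeded background at 14 DIV alone. The list does not hold every probe of the locus on the panel. miR-323-5p and miR-380-5p, for example, were left out and were below background in both cultures. Of the 24 members above background in at least 1 culture, 7 were at least 2-fold higher at 14 DIV and 0 at least 2-fold lower, against 6.25% and 22.1% over all 208 miRNAs, so this locus held 7 of the 13 higher calls. The filter favours this direction, since 11 of the 24 passed through 14 DIV alone. Among the 13 above background in both cultures, 5 were called higher, against 10 of the 160 miRNAs above it in both (6.25%).

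miR-127, which lies antisense to Rtl1, was counted 115 times at 8 DIV and 396 times at 14 DIV, a ratio of 4.33 (3.01 to 6.44). miR-329 had 154 and 496 counts, a ratio of 3.67 (2.73 to 5.02), and miR-410 had 108 and 245. The counts of miR-382 were 217 and 533 and those of miR-434-3p 168 and 387, ratios of 2.58 and 2.53. miR-495 and miR-376b were below background at 8 DIV, with 57 and 61 counts, and reached 145 and 129 at 14 DIV, so that they were at least 3.21-fold and 2.79-fold higher. These miRNAs were scarce, since the 47 together made up 0.410% of the counts at 8 DIV and 0.973% at 14 DIV.

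The locus did not move as one. miR-136, which lies close to miR-127, had 314 counts at 8 DIV and 230 at 14 DIV, so that the quotient of miR-127 to miR-136 was 0.284 at 8 DIV and 1.81 at 14 DIV. miR-381 had 87 and 61 counts and miR-431 88 and 88. The median log2 ratio of the 13 members above background in both cultures was 0.73, against -0.30 over the 160 such miRNAs, and it fell below 0 with Actb alone.

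Of the remaining higher calls, miR-365 went from 406 to 979 counts, a ratio of 2.37 (2.00 to 2.82), beside its genomic neighbour miR-193b at 87 and 109. miR-223, a miRNA of myeloid cells, was below background at 8 DIV with 54 counts and had 158 at 14 DIV, at least 3.55-fold higher. Other blood cell and microglial markers did not go that way, with miR-142-3p at 312 and 192 counts and miR-142-5p at 220 and 155, and miR-144 and miR-451 did not reach even the negative control mean in either culture. The summed share of that list was 0.117% at 8 DIV and 0.116% at 14 DIV. The probe for miR-1937a and miR-1937b, which like miR-720 resembles a transfer RNA, went from 2544 to 5696 counts. The 5 tRNA-like probes together made up 6.46% of the counts at 8 DIV and 12.1% at 14 DIV, though miR-1944 stayed at 3955 and 4172.

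Among the lower miRNAs the clusters related to miR-17-92 stood out. Of 11 probes, 7 exceeded background in both cultures, 6 of these were at least 2-fold lower at 14 DIV and 0 higher, against 22.1% and 6.25% over all 208 miRNAs. The seventh, miR-25, was 1.75 times lower. The median log2 ratio of the 7 was -1.76 and stayed below 0 under the 10 scalings, at -0.32 with B2m alone. Single members did not all stay below 0. With B2m alone miR-25 was at 0.64, miR-19b at 0.016 and miR-106b at 0.010. miR-20a+miR-20b, read by 1 probe, went from 1407 to 254 counts, 6.49 times lower (5.37 to 7.88). miR-106a+miR-17 went from 1019 to 297 counts, 3.92 times lower. miR-19a, which has another seed in the same cluster, had 518 and 130 counts, and miR-19b 234 and 104.

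The related cluster on chromosome 5 holds miR-106b, miR-93 and miR-25. miR-93 had 267 and 98 counts and was 3.39 times lower (2.28 to 5.18), and miR-106b had 339 and 146 and was 2.70 times lower. miR-25, from the same precursor, kept 2656 and 1653 counts, so that the ratio of miR-93 was 1.94 times lower than that of miR-25 (1.19 to 3.23), a difference that needs no scaling. The probes of miR-18b, miR-363 and miR-92a stayed at or below the negative control mean in both cultures. In fresh P11 MG, miR-20a+miR-20b held 0.420% of the counts, against 0.322% at 8 DIV, 0.0606% at 14 DIV and 0.0409% in fresh adult MG.

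The miR-15/16 family took the same direction. miR-15a went from 2361 to 561 counts, 4.71 times lower at 14 DIV (4.15 to 5.37), and miR-15b from 3580 to 1032, 3.83 times lower (3.48 to 4.22). miR-16, the most abundant member, went from 10192 to 5088 counts and was 2.18 times lower, and miR-322 from 325 to 183, 1.98 times lower. miR-16 is made beside both miR-15a and miR-15b, from separate loci, yet it declined less, 2.16 times less than miR-15a (1.81 to 2.58) and 1.75 times less than miR-15b (1.52 to 2.02). The median log2 ratio of the 4 measured members was -1.53 and stayed below 0 under the 10 scalings, but miR-16 and miR-322 lay above a ratio of 1 with B2m alone.

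**Figure D4:**
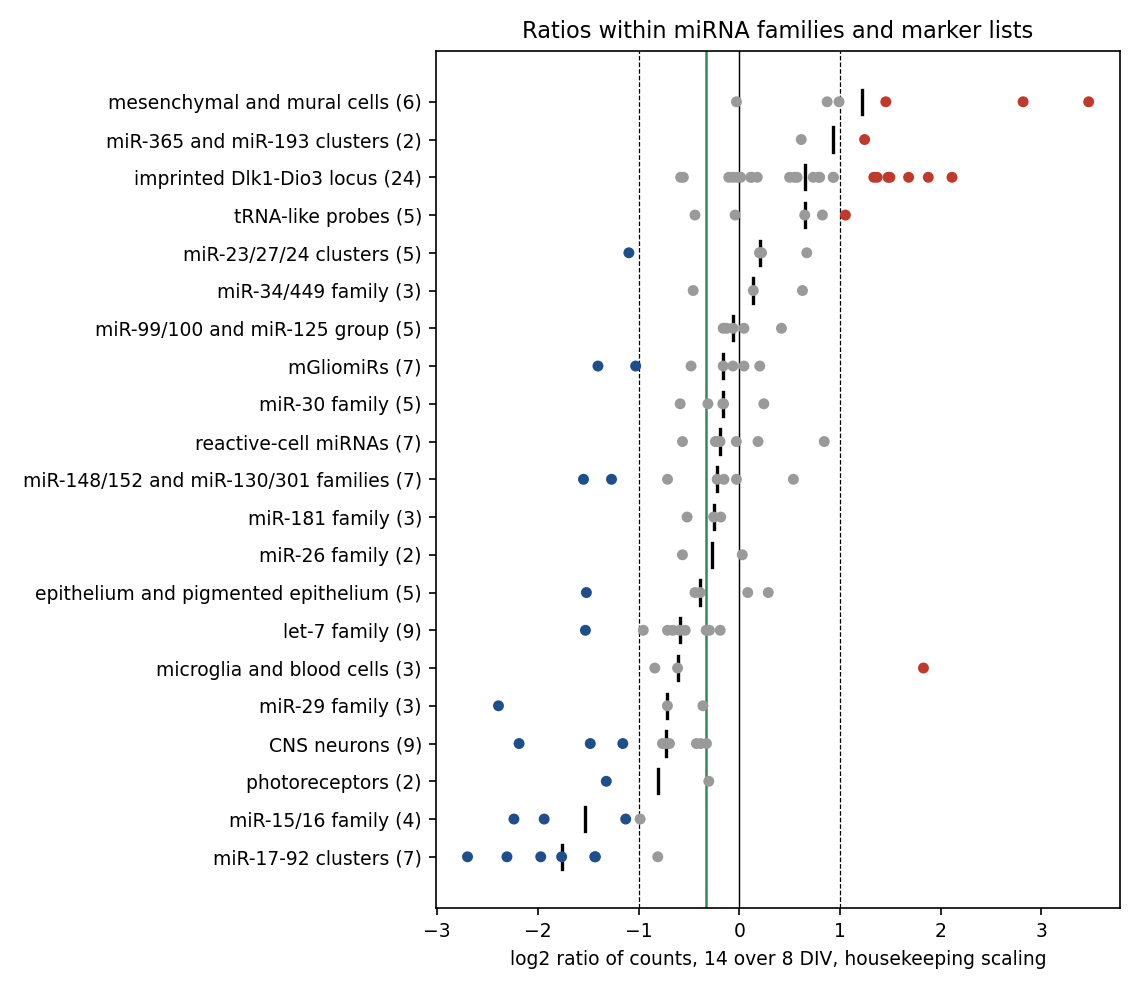
Log2 ratio of housekeeping-scaled counts, 14 over 8 DIV (x axis), for the members above background of each family or marker list, with the number of members in brackets; red and blue points are at least 2-fold higher or lower, black bars are list medians and the green line is the median of all 208 miRNAs (-0.33). The miR-17-92 and miR-15/16 lists lie furthest to the left, and the mesenchymal and mural list furthest to the right.

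Within the miR-29 family the members parted. miR-29b was counted 4220 times at 8 DIV and 893 times at 14 DIV and was 5.24 times lower (4.75 to 5.79). miR-29a, with 8432 and 5602 counts, was 1.64 times lower, and miR-29c, with 1603 and 1353, was 1.28 times lower. miR-29b therefore stood at 2.67 times miR-29c at 8 DIV and at 0.654 times at 14 DIV, a 4.08-fold shift (3.33 to 5.01) that no scaling can alter. The family is made from 2 precursors, miR-29b with miR-29a on chromosome 6 and miR-29b with miR-29c on chromosome 1, and the partner from either precursor had a ratio nearer 1. Counted from the 5′ end, miR-29a and miR-29c differ in a single base, C10U, whereas the 3′ end of miR-29b ends in AGUGUU, a stretch known from human cells as a nuclear import signal. Of 1679 mature mouse sequences in the RefSeq table, 2 (0.119%) end in these letters. In fresh P11 MG miR-29b had 260 counts, or 0.0454% of the total, against 0.981% at 8 DIV and 0.229% at 14 DIV.

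The 9 let-7 miRNAs were all nominally lower at 14 DIV on the housekeeping scale, as were 143 of all 208 miRNAs. Only let-7i, 1 of 9, passed the 2-fold limit. Over all 208 miRNAs 22.1% were lower, so this count does not set the family apart. The median log2 ratio was -0.59, and it lay above 0 with B2m alone and with Rpl19 alone. let-7g came closest to the limit, with 10449 counts at 8 DIV and 5883 at 14 DIV, 1.94 times lower. let-7e moved least, with 5157 and 4916 counts. let-7c, the most abundant, had 28289 and 24534 counts, let-7b had 25909 and 17870, and let-7d had 12882 and 8565. The ratio of let-7i was 2.35 times lower than that of let-7a (2.17 to 2.54), whatever the scaling. The 2 members with the lowest ratios, let-7g and let-7i, both carry G12U and U18C relative to let-7a, counted from the 5′ end, and differ from each other by A17G and A19U. The family as a whole made up 27.1% of the counts at 8 DIV and 21.2% at 14 DIV, and 21.2% in fresh P11 MG.

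The cluster of miR-23a, miR-27a and miR-24 gave another case of unequal partners. miR-23a had 5881 and 7356 counts and miR-24 had 657 and 802, whereas miR-27a went from 4765 to 2434. The ratio of miR-27a was 2.46 times lower than that of miR-23a (2.19 to 2.77). The paralogous miR-23b had 1313 and 2238 counts and miR-27b 155 and 175. In all, 198 of the 208 miRNAs could be placed in the RefSeq gene table, and 105 of them lay in 44 groups of neighbours within 10 kb. In 16 of these groups the log2 ratios of the members spread over at least 1. The groups overlap, since miRNAs such as miR-29b lie in more than 1 of them. This count was not compared with unrelated miRNAs, so it does not set neighbours apart.

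Unequal arms of 1 precursor were seen too. miR-125a-5p stood at 11089 and 11081 counts, while miR-125a-3p had 361 and 204, a ratio 1.80 times lower (1.32 to 2.47). For miR-423 the 3p arm went from 171 to 86 counts and the 5p arm from 184 to 229. miR-222 and miR-221, neighbours on the X chromosome, had 100 and 149 counts and 681 and 620 counts, and differed 2.12-fold in their ratios (1.10 to 4.24).

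The miRNAs that the study calls mGliomiRs, chosen as high in MG over neurons on fresh cells of this series, are miR-23a, miR-9, miR-204, miR-100, miR-135a, miR-125b-5p and miR-99a. Of these 7, all above background in both cultures, 2 were at least 2-fold lower at 14 DIV and 0 higher, near the 22.1% and 6.25% over all 208 miRNAs. The list was chosen on this series and is no independent evidence of a direction. Together they held 34.7% of the counts at 8 DIV and 33.5% at 14 DIV, against 52.1% in fresh P11 MG and 65.4% in fresh adult MG. miR-9 was the one that declined most, and miR-135a went from 3020 to 1617 counts, 2.04 times lower. miR-99a had 4847 and 4715 counts and miR-100 had 3022 and 3139. The quotient of miR-9 to miR-204 went from 0.560 at 8 DIV to 0.295 at 14 DIV, and that of miR-204 to miR-125b-5p from 0.945 to 0.657. miR-181a, also abundant in fresh MG at 6.32% of the P11 counts, stood at 1.33% and 1.36% in the cultures.

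**Figure D5:**
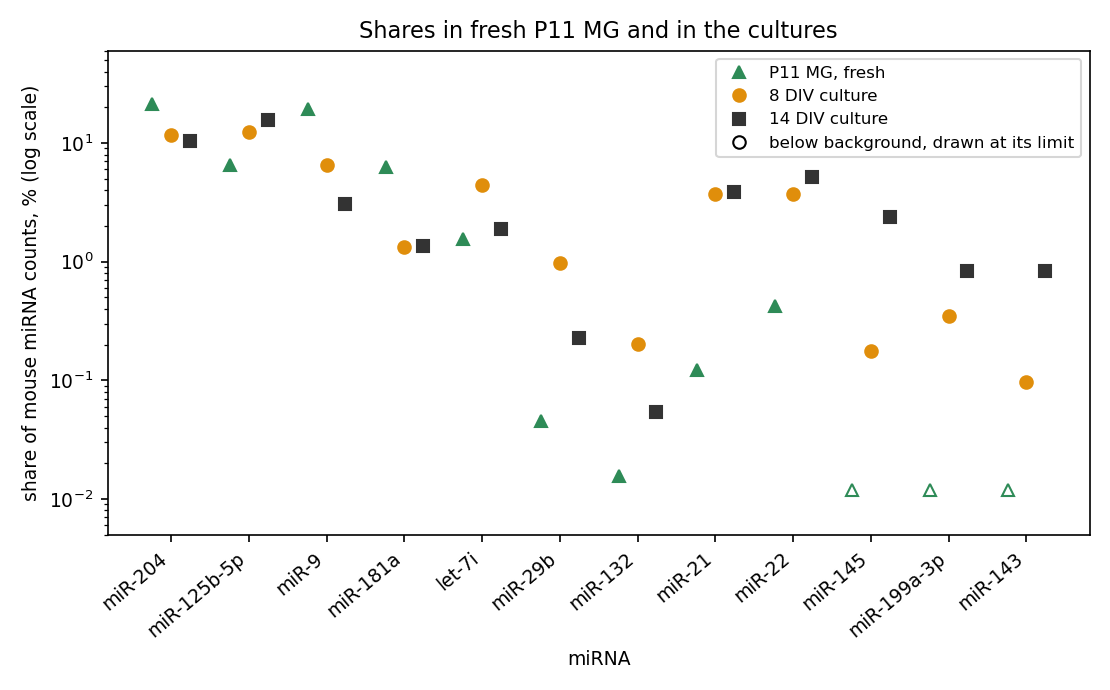
Share of the background-subtracted mouse miRNA counts (y axis, %, log scale) of 12 miRNAs in fresh P11 MG (green triangles), the 8 DIV culture (orange circles) and the 14 DIV culture (black squares), 1 pooled sample each; open symbols are below background. miR-9 was at 19.3%, 6.59% and 3.05%, and miR-145 was below background in P11 MG and at 0.176% and 2.39% in the cultures.

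Set beside fresh P11 MG, the miRNAs that differed between the days followed several courses, given as shares because the sorted and cultured samples differ in their housekeeping mRNAs. miR-9 held 19.3% in P11 MG, 6.59% at 8 DIV and 3.05% at 14 DIV. let-7i held 1.54%, 4.41% and 1.87%. miR-132, a miRNA induced by neuronal activity, held 0.0155%, 0.201% and 0.054%. miR-21 held 0.122%, 3.72% and 3.89%, and miR-22 held 0.424%, 3.70% and 5.15%, so both were high in either culture. The 14 and 8 DIV samples are compared here with the same P11 pool, and no change from it was tested.

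Of 10 miRNAs that mark neurons of the central nervous system, 8 exceeded background at 8 DIV and 7 at 14 DIV, 3 of the 9 above it in at least 1 culture were at least 2-fold lower at 14 DIV and 0 higher. Over all 208 miRNAs 22.1% were lower and 6.25% higher, so these counts do not set the list apart. miR-124, the most abundant neuronal miRNA, had 1072 and 722 counts, or 0.243% and 0.184% of the total. miR-132 went from 893 to 229 counts and was 4.55 times lower (3.68 to 5.66). miR-129-3p went from 869 to 431, and miR-129-5p from 110 to 41, the latter below background at 14 DIV. The summed share of the list was 0.743% at 8 DIV, 0.415% at 14 DIV and 0.366% in fresh P11 MG. The photoreceptor markers miR-96 and miR-183 had 316 and 146 counts and 172 and 144, and miR-182 was below background in both. miR-338-3p, known from oligodendrocytes and neurons, went from 490 to 208 counts, while miR-219, the defining oligodendrocyte miRNA, stayed at or below the negative control mean in both. Of the 8 epithelial and pigmented epithelial miRNAs, 5 exceeded background at 8 DIV and 3 at 14 DIV. Of the 5 above it in at least 1 culture, 1 was at least 2-fold lower at 14 DIV and 0 higher. This was miR-203, which went from 112 to 48 counts, below background at 14 DIV. miR-211 had 100 and 109 counts, and miR-141 and miR-429 stayed at or below the negative control mean. miR-126-3p, the endothelial marker, had 83 and 66 counts. The part of residual neurons and other cells in the differences was not tested.

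Further lower miRNAs belonged to none of these lists. miR-335-5p went from 1573 to 483 counts, 3.65 times lower (3.15 to 4.22), and miR-674 from 473 to 108, 5.66 times lower (4.04 to 8.10). miR-804 had the largest ratio, with 246 counts at 8 DIV and 46 at 14 DIV, below background, and was at least 7.91-fold lower. miR-32 and miR-2137 were below background at 14 DIV as well, at least 4.44-fold and 4.52-fold lower. miR-362-3p had 219 and 66 counts, miR-2132 had 196 and 61 and miR-669f had 147 and 53. In the group of miR-148, miR-152, miR-130 and miR-301, miR-148a went from 1498 to 685 counts and miR-130b from 216 to 91, while miR-130a stayed at 1194 and 1159.

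Several abundant families gave no call. In the group of miR-99, miR-100 and miR-125, 0 of 5 were called, and the share of the group was 17.3% at 8 DIV and 21.4% at 14 DIV. The 5 miR-30 miRNAs had log2 ratios from -0.59 to 0.24 and the 3 probes of the miR-181 family from -0.52 to -0.18. Both miR-26 miRNAs and the 3 detected members of the miR-34 family gave no call, with miR-34a at 642 and 751 counts. Among 7 detected miRNAs known from reactive cells 0 passed the limit, miR-146a standing at 1444 and 1527 counts. miR-210, the hypoxia miRNA, had 451 and 546 counts. The absence of a call shows only that the ratio stayed within 2-fold. Over all 208 miRNAs 6.25% were called higher and 22.1% lower, so 0 calls in groups this small does not set them apart.

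Closest to the limit from inside were miR-199a-3p, with a log2 ratio of 0.99, and miR-322, with -0.98. Just past it lay miR-1937a+miR-1937b at 1.05 on the higher side and miR-467f at -1.02 on the lower one, the latter below background at 14 DIV.

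The names of 16 miRNAs do not carry the same counts in the 2 deposited tables. In both culture columns of the normalized table these 16 hold, within 2 counts or 1%, the value computed from the raw count of another of the 16. They include miR-20a+miR-20b, which there has the values of miR-342-3p, miR-15a with those of miR-23a, miR-106a+miR-17 with those of miR-15a, miR-29a with those of miR-148a and miR-1937a+miR-1937b with those of miR-106a+miR-17. Read by name from the normalized table, miR-15a would go from 4890 to 5632 and miR-20a+miR-20b from 478 to 610, and the ratios of 10 of the 16 would lie on the other side of 1. The others are miR-124, miR-130a, miR-148a, miR-151-5p, miR-191, miR-210, miR-23a, miR-350, miR-30d, miR-99b and miR-342-3p. Neither table says which pairing of names and counts is correct. The study describes a large increase of miR-23a in culture. At 14 DIV the value computed from its raw count is 5630, against 485 by name in the normalized table. For miR-23a the study's description thus goes with the raw table, and the other names were not checked in this way. The calls on miR-15b, miR-16, miR-93, miR-106b, miR-19a, miR-19b, miR-29b, let-7i, miR-9, miR-143 and miR-145 do not involve them, and without the 16, 12 of 192 miRNAs were at least 2-fold higher and 42 lower.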

How the data were processed

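RNA of the 2 cultures was counted by the study on the NanoString nCounter mouse miRNA panel without amplification (566 mouse and 33 viral probes). The deposited raw table holds unnormalized counts, 1 for each probe in each sample, as the authors exported them. The deposited normalized values, made by the authors in nSolver with negative and positive controls and the 4 housekeeping mRNAs, were read as a score and used as an alternative only. Here the mean of the 8 negative probes was subtracted from each raw count, and values below 2 SD of these probes were set to that level. Ratios were scaled to the summed counts of the 4 housekeeping mRNAs after background subtraction, and shares the sum over mouse probes. No column was left unmapped. No viral probe exceeded background in either culture.

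Count limits are exact Poisson and share limits exact binomial. The interval of a ratio divides the lower limit of 1 culture by the upper limit of the other. The panel's arms were assigned by name, and all 42 names looked up had a RefSeq sequence. The cause of a difference was not tested.

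The members and lists were chosen with earlier results of these data known, so counts of calls within a list are no independent evidence of a direction. Named were the 15 miRNAs with the highest share in either culture, the 12 each way with the largest ratio among calls with at least 100 counts, the 2 to 4 highest members of each list, all members of lists of 5 or fewer, and the 16 miRNAs whose values differ between the tables. Others, such as single members of a list or neighbours in the genome, were named after their values were seen. The calling steps were tested on simulated data with 200 altered miRNAs. The alterations were larger than the 2-fold limit, noise was counting error alone, and only miRNAs well above background were scored. The data were built with the same scaling factor that was then applied. The simulation thus says nothing on ratios near the limit, values near background, the choice of scaling or the spread between cultures. Values were computed in Python 3.11.15 with scipy 1.17.1, numpy 2.4.6 and pandas 2.3.3.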

Additional observations from a re-analysis of the deposited data

How the results depend on the processing

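No paired analysis was possible because each day is 1 pooled sample, so no sample could be left out either. At least 2-fold higher and lower at 14 DIV were 13 and 46 miRNAs. These counts became 23 and 30 with equal totals, 25 and 29 with the 100 highest miRNAs, 23 and 29 with the median ratio, 36 and 18 with Rpl19 alone, 3 and 135 with Actb alone and 117 and 3 with B2m alone. Higher calls became 20 with Gapdh alone and 20 with values below background kept as they stand. At 1.5-fold they were 28 and 72, at 3-fold 6 and 18, and with at least 500 counts 6 and 15. Positive or ligation controls, other backgrounds, no subtraction, and calls limited to both cultures or at least 100 counts kept both counts within 1.5 times. The deposited values gave 13 and 46 as well, but this is no independent check. These values are scaled to the same housekeeping mRNAs. The 16 miRNAs that the 2 tables pair differently only exchange values among themselves, which leaves the counts of calls unchanged. R2 was 0.811 with at least 100 counts and 0.925 over all 566 miRNAs.

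Of the 36 called miRNAs named by the rule above, 7 changed sign with B2m alone, to log2 ratios of 0.29 for miR-129-3p, 0.18 for miR-148a, 0.32 for miR-16, 0.35 for miR-27a, 0.019 for miR-338-3p, 0.042 for miR-9 and 0.12 for miR-96. Called miRNAs named outside that rule changed sign with B2m alone too. These were miR-135a, miR-467f and miR-762 at 0.42, miR-423-3p at 0.20, miR-19b at 0.016 and miR-106b at 0.010. By name in the deposited values, 3 of the 36 changed sign, with 0.20 for miR-15a, 0.35 for miR-20a+miR-20b and -1.98 for miR-1937a+miR-1937b. The 2 tables pair these names with different counts, and neither says which pairing is correct. The settings without the 16 exchanged miRNAs and without cell type markers were chosen after seeing the data. Counts near background limit the ratios of scarce miRNAs.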
